A study of Homo sapiens with 28 samples.

Results

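The genes of cholesterol and fatty acid synthesis were read across U937 cells that lacked an NF-kB subunit, with and without lipopolysaccharide (LPS). U937 is a human myelomonocytic cell line, and LPS is the bacterial cell wall lipid that monocytes sense as infection. The set holds 37 genes, taken by symbol from the 56809 gene rows of the deposited tables: 7 genes of the mevalonate pathway, 12 that turn its product into cholesterol, 5 that control SREBP, 2 of sterol transport, 8 of fatty acid synthesis and 3 targets of the liver X receptor (LXR). All 37 symbols were found. 36 of them passed the filter on low counts and were among the 18624 genes tested. ELOVL6, a fatty acid elongase, did not pass, with under 3 counts in 23 of the 28 libraries.

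Cells make cholesterol from acetyl-CoA by way of mevalonate, isoprenoid diphosphates, squalene and lanosterol. When sterol in the endoplasmic reticulum is low, SCAP carries the precursors of the transcription factors SREBP1 and SREBP2, the products of SREBF1 and SREBF2, to the Golgi, where they are cut and released to switch on the genes of synthesis. INSIG1 and INSIG2 hold SCAP back when sterol is plentiful. LXR answers to oxysterols and raises efflux through ABCA1 and ABCG1. In macrophages, inflammatory signals are known to alter both arms.

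The knockout groups were p50-/-, p52-/-, p65-/-, cREL-/- and RELB-/- clones, and the reference was CTR, clones that had received non-specific guide RNAs. p50, p52, p65, cREL and RELB are the 5 NF-kB subunits. There were 2 clones each of p50, p52, cREL and RELB, and 3 each of p65 and CTR, so 14 clones in all. Each clone gave 1 library with LPS at 500 ng/ml and 1 untreated library, both labelled 6 h, which makes 12 groups and 28 libraries. All groups share the same parent line and serum-containing medium. Clones were processed in batches named A, B and C in the labels: p50 2, p52 2, cREL 2, RELB 1 and p65 1 in A, p50 1, p52 1, cREL 1, RELB 2 and CTR 2 in B, and p65 2, p65 3, CTR 1 and CTR 3 in C. CTR 2 is therefore the only control clone in the batch of 4 knockout clones, and batch A holds no control. Bulk RNA cannot tell fewer cells of a kind from less RNA per cell.

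Total counts ran from 12643438 to 22122428 per library, and mitochondrial messenger RNA took 4.2 to 7.23% of them. Of 8 myelomonocytic markers, 7 averaged at least 1 TPM, led by LYZ at 1047 TPM, and MPO averaged 0.0417 TPM. The 4 hepatocyte and adipocyte markers summed to at most 0.321 TPM in any library. The T and NK cell gene NKG7 averaged 340 TPM, with CD3D at 0 in every library and CD3E at 0.00591 TPM. Among the targeted genes, RELA was at 3.67 to 8.36 CPM (counts scaled to library size) in p65 2 and p65 3 but at 58.2 CPM with LPS and 53.6 CPM untreated in the libraries labelled p65 1, against 46.7 to 61.2 CPM in CTR. SOD2, a known NF-kB target, stood at 129, 95.5 and 102 CPM with LPS in p65 clones 1, 2 and 3, against 831, 856 and 1684 CPM in CTR clones. NFKB1, which encodes p50, was at 10.9 and 6.65 CPM with LPS in p50 clones, against 25.1, 27.7 and 33.2 CPM in CTR. REL was at 23.9 CPM with LPS in cREL 1 and 8.17 CPM in cREL 2, against 36.8 to 46.1 CPM in CTR. NFKB2 was at 2.64 and 3.45 CPM with LPS in p52 clones, against 11.6 to 15 CPM in CTR. RELB was at 8.75 and 13.6 CPM with LPS in RELB clones, against 19.8 to 24.8 CPM in CTR. These are RNA levels and do not show whether protein was lost.

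Levels of the genes differed widely in TPM, the length-scaled unit used here to compare genes with each other. EBP, the sterol isomerase of the late pathway, was the highest at 467 TPM on average over the 28 libraries, with a range of 174 to 623 TPM. FDPS, which makes farnesyl diphosphate, averaged 420 TPM, between 230 and 633 TPM. FDFT1, the squalene synthase, followed at 231 TPM, then SCD, the desaturase that makes oleate, at 212 TPM and LBR, a sterol reductase that is also the lamin B receptor of the nuclear envelope, at 164 TPM. In the other roles the highest were INSIG1 at 79.2 TPM, TMEM97, an endoplasmic reticulum protein, at 69.5 TPM and MYLIP, a ubiquitin ligase that marks lipoprotein receptors for breakdown, at 5.95 TPM. HMGCS1, the first committed enzyme of the mevalonate pathway, averaged 19.9 TPM and SQLE, the squalene epoxidase, 87.8 TPM. FASN, the fatty acid synthase, averaged 26.0 TPM, SREBF2 25.1 TPM and SREBF1 6.74 TPM. The efflux pumps were near the floor, ABCG1 at 0.437 TPM and ABCA1 at 0.161 TPM, with under 3 counts in 5 libraries for ABCG1 and in 9 for ABCA1.

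**Figure D1:**
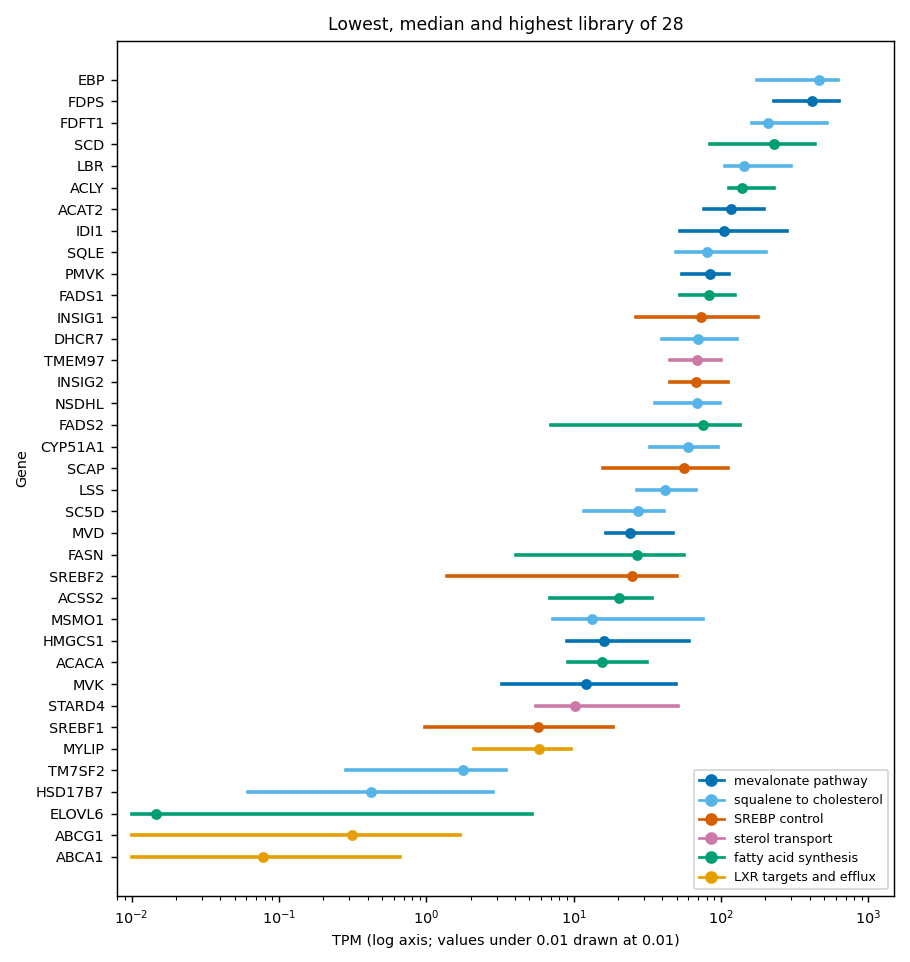
Level of each of the 37 genes in TPM on a log axis, with a line from the lowest to the highest of the 28 libraries, a dot at the median and colour by role. EBP and FDPS lead, and ABCA1 and ABCG1, the LXR targets of efflux, lie below 1 TPM on average. SREBF2 and FADS2 have long lines to the left among genes of their median level.

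The 4 genes that passed the test in any comparison were STARD4, INSIG1, LBR and DHCR7, and their promoters are given here because the results turn on these genes. STARD4 carries cholesterol between membranes (chr5:111496033-111512590, minus strand, GRCh38), INSIG1 retains SCAP (chr7:155297776-155310235, plus strand), DHCR7 catalyses the last step to cholesterol (chr11:71428193-71452868, minus strand) and LBR reduces a sterol intermediate (chr1:225401502-225428925, minus strand). The windows, from RefSeq on GRCh38.p14, run from 250 bases before to 50 bases after a start site, 5′ to 3′ on the gene's strand. They are chr5:111512486-111512785, chr7:155297628-155297927, chr11:71448344-71448643 and chr1:225428772-225429071. Capitals mark CCAAT (the NF-Y box, ATTGG when read on the other strand) and TCANNCCAC (a loose sterol regulatory element).
STARD4: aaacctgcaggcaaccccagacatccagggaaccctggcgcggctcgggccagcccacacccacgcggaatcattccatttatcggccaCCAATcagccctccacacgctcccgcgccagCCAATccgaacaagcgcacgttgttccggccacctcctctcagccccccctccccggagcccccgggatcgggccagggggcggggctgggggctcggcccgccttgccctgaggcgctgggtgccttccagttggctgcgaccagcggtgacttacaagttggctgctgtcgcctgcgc
INSIG1: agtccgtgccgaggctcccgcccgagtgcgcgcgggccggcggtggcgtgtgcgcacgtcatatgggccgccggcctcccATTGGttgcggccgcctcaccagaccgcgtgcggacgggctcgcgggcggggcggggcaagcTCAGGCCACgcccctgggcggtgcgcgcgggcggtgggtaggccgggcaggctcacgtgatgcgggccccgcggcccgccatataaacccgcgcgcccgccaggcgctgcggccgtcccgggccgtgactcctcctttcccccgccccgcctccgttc
DHCR7: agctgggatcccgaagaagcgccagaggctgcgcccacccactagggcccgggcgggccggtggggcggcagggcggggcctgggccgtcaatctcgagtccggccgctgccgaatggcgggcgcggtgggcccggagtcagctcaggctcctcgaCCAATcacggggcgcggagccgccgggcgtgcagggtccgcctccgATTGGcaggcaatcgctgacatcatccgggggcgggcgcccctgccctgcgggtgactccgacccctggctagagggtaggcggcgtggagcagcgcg
LBR: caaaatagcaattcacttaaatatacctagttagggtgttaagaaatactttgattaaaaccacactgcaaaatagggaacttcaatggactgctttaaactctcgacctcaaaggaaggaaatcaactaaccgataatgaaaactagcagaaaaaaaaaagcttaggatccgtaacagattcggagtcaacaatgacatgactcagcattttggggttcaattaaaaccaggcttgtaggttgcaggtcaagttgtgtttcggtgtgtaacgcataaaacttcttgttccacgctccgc
STARD4 held CCAAT at -161 to -157 and at -130 to -126 from the start site. INSIG1 held TCANNCCAC at -108 to -100 and CCAAT on the opposite strand at -170 to -166, with the E-box CACGTG at -55 to -50. DHCR7 held CCAAT at -94 to -90 and, on the opposite strand, at -48 to -44, and the LBR window held none of the 6 motifs searched. The loose NF-kB letters described next were also in the STARD4 window (-204 to -195 on both strands, -40 to -31, and -39 to -30 on the opposite strand), in that of INSIG1 (-105 to -96, opposite strand) and in that of DHCR7 (-224 to -215 on the opposite strand, -179 to -170 and 2 to 11), and are not in capitals.

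Promoters were found for 32 of the 37 genes and both strands were searched. CCAAT was in 23 of the 32, or 71.9%, and in 39.7% of the promoters of all 27305 genes. TCANNCCAC was in 3 of the 32 (INSIG1, ACLY and SREBF2), or 9.38%, against 4.74% of all genes, and the stricter TCACNCCAC, which TCANNCCAC contains, was in SREBF2 alone, or 3.12%, against 1.39%. CACGTG was in 5, or 15.6%, against 8.77%. A GGG and a CC with any 5 bases between them, a loose form of the NF-kB site, were in 29, or 90.6%, against 61.7% of all genes. The LXR element, AGGTCA repeated after any 4 bases, was in 0 of the 32, against 0.0256%. A match is a run of letters and not evidence of binding.

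No gene of the set passed the main test with LPS, which did not pair the 2 libraries of a clone. Compared with untreated libraries of the same genotype, 0 of the 36 tested genes passed in any of the 6 genotypes by edgeR's quasi-likelihood test at an adjusted p under 0.05. Of all genes tested, LPS changed 0.0161% in p50, 0.0215% in p52, 0.0268% in p65, 0.0107% in cREL, 0.129% in RELB and 0.408% in CTR. In the mean over the 6 genotypes, 0 members passed against 0.403% of all genes. At an unadjusted p under 0.05 there were 1 member in RELB, 3 in CTR and 3 in the mean, against 2.89%, 5.12% and 4.25% of all genes. There were 0 in p50, p52, p65 and cREL, against 1.79%, 1.96%, 1.56% and 1.72% of all genes. DESeq2 called STARD4 in CTR, where it called 0.832% of all genes, and 0 members in the other 5 genotypes and in the mean. The median log2 fold change of the members with LPS was 0.02 in p50, 0.07 in p52, -0.01 in p65, 0.03 in cREL, 0.08 in RELB and 0.04 in CTR, and that of all genes lay between -0.01 and 0.01. The median standard error of a member's log2 fold change was 0.22 to 0.28 in a single genotype and 0.11 in the mean.

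STARD4, the carrier of cholesterol between membranes, had the highest fitted change in CTR of the well-detected genes. In CTR clones 1, 2 and 3 it stood at 21.9, 59.5 and 18.0 CPM with LPS, against 12.1, 31.3 and 9.39 CPM untreated. Every control clone was therefore higher with LPS, although the clones differed in level. The fitted log2 fold change was 0.90 ± 0.21 (SE, n = 3 clones, edgeR adjusted p = 0.08), which did not pass. With each clone as a block, so that LPS is read within clones, it was 0.91 ± 0.16 (edgeR adjusted p = 0.0052), where the block called 1.27% of all genes. Allowing for the effective length of its transcripts lowered the value to 0.68 (edgeR adjusted p = 0.46).

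In the knockout clones the change was smaller in every clone. In p50 clones STARD4 changed by 0.53 and 0.21 log2 units with LPS, and in p52 clones by 0.03 and 0.05. In p65 clones it changed by -0.30, -0.09 and -0.64, where the first is the clone labelled p65 1 whose RELA was not low. In cREL clones it changed by 0.33 and -0.18 and in RELB clones by 0.10 and -0.04. In CTR clones 1, 2 and 3 the change was 0.85, 0.92 and 0.93 log2 units, so all 11 knockout clones lay below every CTR clone. Among the 36 members no other gene showed this pattern, which 0.671% of all genes tested showed.

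The difference in LPS response was also tested directly. STARD4's response in p65 minus that in CTR was -1.23 ± 0.30 log2 units (SE, 3 clones each, edgeR adjusted p = 0.74), and it was -1.25 ± 0.22 with each clone as a block (edgeR adjusted p = 0.0497). The differences from CTR were -0.54 ± 0.34 in p50, -0.86 ± 0.34 in p52, -0.85 ± 0.34 in cREL and -0.88 ± 0.33 in RELB (edgeR adjusted p = 1 for each). Across the 5 differences 0 of 36 members passed, against 0.0161% of all genes for p65 and 0% for the other knockouts. At an unadjusted p under 0.05, 1 member was found in each of the 5, against 2.95% of all genes in p50, 2.55% in p52, 2.79% in p65, 3.01% in cREL and 2.14% in RELB. With the block, 1 member passed for p65, against 0.0752% of all genes.

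SQLE, HMGCS1 and INSIG1 were higher with LPS in most clones, and several other sterol genes in few. SQLE was higher with LPS in 12 of 14 clones, with a mean log2 fold change of 0.24 ± 0.10 (SE, edgeR adjusted p = 1). With the clone block SQLE passed, at 0.24 ± 0.05 (edgeR adjusted p = 0.028), and the block called 0.886% of all genes. HMGCS1 was also higher in 12 of 14 clones, with a mean of 0.20 ± 0.09 (edgeR adjusted p = 1), and 2.28% of all genes were higher in at least 12 clones. INSIG1 was higher in 11 of 14 clones, at 0.26 ± 0.10 (edgeR adjusted p = 0.95), the highest mean of the set apart from the barely detected HSD17B7. Its changes were between -0.35 and 0.89 log2 units in the knockout clones, and 0.57, 0.73 and 0.50 in the CTR clones. CYP51A1, the lanosterol demethylase, and MVK, mevalonate kinase, were higher in 4 of 14 clones, and TMEM97 and INSIG2 in 3. Of the 12 genes from squalene to cholesterol, 7 had a positive mean change, with a median of 0.04, against 0.00 for all genes. The lowest mean changes were those of SCAP, at -0.11 ± 0.14, and TM7SF2, a minor sterol reductase.

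**Figure D2:**
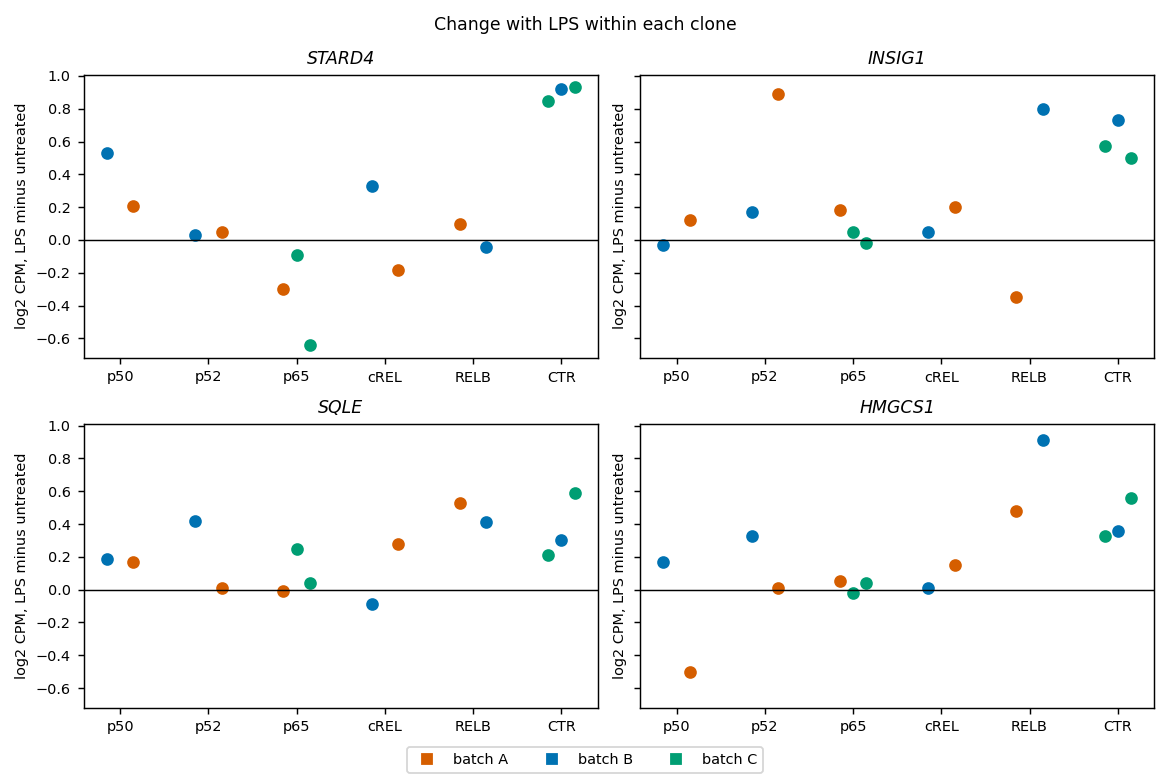
Change with LPS within each clone, as log2 CPM with LPS minus log2 CPM untreated, for STARD4, INSIG1, SQLE and HMGCS1 in the 5 knockouts and CTR, coloured by batch. For STARD4 all 11 knockout clones lie at 0.53 or below, and the CTR clones lie at 0.85, 0.92 and 0.93. SQLE and HMGCS1 are above 0 in 12 of 14 clones.

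Within single genotypes the largest fitted changes with LPS, apart from those of the barely detected ABCA1, ABCG1, HSD17B7 and TM7SF2, were mostly small and none passed. In CTR the lowest were MVK at -0.40 ± 0.30 and PMVK, phosphomevalonate kinase, at -0.33 ± 0.23 on the log2 scale. In p65 the highest were PMVK at 0.30 ± 0.23 and FDPS at 0.30 ± 0.20, and both rest on p65 3, whose untreated library had 33.1 CPM of PMVK and 121 CPM of FDPS, the lowest of all 28 libraries for both. In that library the genes in the shortest of 5 classes by transcript length had a median of -0.62 log2 units against the 28-library median, and both genes belong to that class, whose part in the result was not tested. In cREL the extremes were MSMO1, a methylsterol oxidase, at 0.36 ± 0.36, FDPS at 0.19 ± 0.24 and MVK at -0.31 ± 0.37. In p50 INSIG2 was at -0.27 ± 0.22. In p52, FADS2, a fatty acid desaturase, was at 1.07 ± 0.72 and SREBF2 at 1.06 ± 0.75, and both rest on p52 2, without which they were 0.14 and 0.18, with ACACA, the acetyl-CoA carboxylase, at -0.33 ± 0.38. In RELB the lowest were FADS2 at -0.77 ± 0.72 and SCAP at -0.69 ± 0.36, and both rest on RELB 1, without which they were 0.05 and -0.16.

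Knockout clones were next set against CTR clones. Untreated, 0 of the 36 members passed in any of the 5 knockouts or in their mean, where 0.0537% of all genes passed in p65, 0.0107% in RELB, 0.0322% in the mean and 0% in p50, p52 and cREL. At an unadjusted p under 0.05 there were 8 members in p50, 6 in p52, 5 in p65, 4 in cREL, 9 in RELB and 4 in the mean, against 6.42%, 7.60%, 12.9%, 5.78%, 11.0% and 8.81% of all genes. DESeq2 called LBR in p52, where it called 0.333% of all genes, and LBR, MVD and STARD4 in RELB, where it called 1.17%. It called 0 in p50, p65, cREL and the mean. With LPS DESeq2 called 4, 3, 2 and 3 members for p50, p52, p65 and cREL, where it called 1.30%, 1.40%, 3.37% and 1.18% of all genes. By edgeR with LPS, INSIG1 passed in p50 and STARD4 in each of p52, p65 and cREL, 1 member per knockout and all lower than CTR. Of all genes, 0.129%, 0.0698%, 0.993% and 0.199% passed in either direction, and 0.113%, 0.0322%, 0.655% and 0.172% as lower. In RELB 0 passed, against 0.0483% of all genes, with 9 at an unadjusted p under 0.05, against 9.80% of all genes, and 4 by DESeq2. The knockouts share the same 3 control clones, so these results are not independent of each other.

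STARD4 was lower with LPS in p52, p65 and cREL clones than in CTR by the test. It stood at 22.2 and 14.3 CPM in p50 clones, 15.3 and 11.5 in p52, 16.7, 14 and 8.97 in p65 and 18.9 and 12.2 in cREL, against 21.9, 59.5 and 18.0 CPM in CTR clones 1, 2 and 3. All p52 and p65 clones lay below every CTR clone, as for 12.2% and 6.94% of all genes, while p50 1 and cREL 1 lay between CTR 3 and CTR 2. RELB clones, at 34.4 and 68.7 CPM, lay within or above the CTR range.

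The fit with batch as a term gave a log2 fold change from CTR of -1.70 ± 0.27 for p52 clones (SE, edgeR adjusted p = 0.013). For cREL clones it was -1.51 ± 0.27 (edgeR adjusted p = 0.02), and p65 clones were at -0.92 ± 0.22 (edgeR adjusted p = 0.043). In p50 it was -1.28 ± 0.26 (edgeR adjusted p = 0.055) and in RELB 0.18 ± 0.25 (edgeR adjusted p = 0.88). The mean of the 5 knockouts was -1.05 ± 0.18 below CTR (edgeR adjusted p = 0.0081).

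These calls leaned on CTR 2, whose STARD4 was the highest of the controls. Within batch B, where CTR 2 is the only control, STARD4 with LPS was below CTR 2 by -1.42 log2 units in p50 1, -1.95 in p52 1 and -1.65 in cREL 1 and above it by 0.21 in RELB 2. Without CTR 2 the fold changes kept their sign and did not pass. They were -1.39, -1.2, -0.78 and -0.76 in p52, cREL, p65 and the mean (edgeR adjusted p = 0.29, 0.32, 0.17 and 0.37). Within batch C alone, p65 2 and p65 3 against CTR 1 and CTR 3 gave -0.82 ± 0.31 (edgeR adjusted p = 0.52), and without the libraries labelled p65 1 the p65 value was -0.80 (edgeR adjusted p = 0.21). None of the 4 passed without a batch term, at -1.31, -1.10, -1.32 and -0.79 (edgeR adjusted p = 0.53, 0.74, 0.36 and 0.41), nor with an offset for effective length, at -1.46, -1.32, -0.62 and -0.81 (edgeR adjusted p = 0.065, 0.069, 0.26 and 0.0545). Leaving out either p52 clone ended the p52 call, either cREL clone the cREL call, and CTR 1 or p65 3 the p65 call.

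Untreated, STARD4 was close to the control range in most knockouts. It stood at 15.3 and 12.4 CPM in p50 clones, 15 and 11.1 in p52, 20.6, 15 and 14.1 in p65 and 15 and 13.8 in cREL, against 12.1, 31.3 and 9.39 CPM in CTR. The RELB clones were above every control, at 32.2 and 70.7 CPM, as they were untreated for 15.6% of all genes. The fitted difference in RELB was 1.06 ± 0.26 log2 units (SE, edgeR adjusted p = 0.14). The differences in p50, p52 and cREL were -0.74 ± 0.26, -0.84 ± 0.26 and -0.67 ± 0.26, none of which passed. Reads of STARD4 cannot be told apart from those of the antisense gene STARD4-AS1 where their exons overlap, as no strand-specific counting is stated. STARD4-AS1 itself was at 2.93 to 11.5 CPM in knockout libraries with LPS, against 2.77 to 4.64 CPM in CTR.

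INSIG1, the brake on SREBP processing, was low in p50 clones with LPS. It stood at 95.2 and 45 CPM in p50 clones, against 130, 216 and 139 CPM in CTR clones, so the groups did not overlap, as for 11.9% of all genes in that direction. The fitted log2 fold change was -1.46 ± 0.27 (SE, edgeR adjusted p = 0.039). Untreated values were 97.0 and 41.4 CPM in p50 clones, against 87.3, 131 and 97.6 CPM in CTR clones, and the difference of -0.89 ± 0.27 did not pass (edgeR adjusted p = 0.68). The value with LPS was -1.57 without CTR 2 (edgeR adjusted p = 0.22) and became -1.10 without p50 2 (edgeR adjusted p = 0.46), and the call was also lost without CTR 1 (edgeR adjusted p = 0.065) or CTR 3 (edgeR adjusted p = 0.074). In p52 clones with LPS INSIG1 was at 101 and 93.1 CPM, a difference of -0.91 ± 0.27 from CTR (edgeR adjusted p = 0.21). It was at 131, 98.3 and 99.8 CPM in p65 clones, 131 and 129 in cREL and 127 and 258 in RELB. Low INSIG1 with LPS was thus not particular to p50. It was below every control in 8 of 11 knockout clones, as 8.08% of all genes were in at least 8, and above every control in 1. The mean of the 5 knockouts was -0.64 ± 0.19 (edgeR adjusted p = 0.13). The 5 SREBP control genes were all negative in p50 with LPS, with a median of -1.06 log2 units, against -0.05 for all genes, of which 54.2% were negative. That median rests on p50 2 and was -0.35 without it, with 3 of the 5 negative. HMGCS1, at 23.6 and 32.1 CPM in p50 clones against 27.3, 55.2 and 33.6 CPM in CTR, missed the threshold there at -1.14 ± 0.24 (SE, edgeR adjusted p = 0.058).

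LBR and DHCR7 moved in opposite directions in the mean of the knockouts with LPS. In that mean 2 members passed as lower, STARD4 and LBR, against 0.617% of all genes, and 1 as higher, DHCR7, against 0.220%, with 0.838% in either direction. LBR was at 297 and 309 CPM in p50, 278 and 317 in p52, 312 and 370 in cREL and 319 and 292 in RELB, against 502, 561 and 419 CPM in CTR. Those 8 clones were below every control, as 11.9% of all genes were in p50, 12.2% in p52, 11.6% in cREL and 12% in RELB, while p65 clones, at 431, 470 and 484 CPM, lay within the control range. Of all genes, 8.08% were below every control in at least 8 of 11. The mean difference was -0.58 ± 0.12 log2 units (SE, edgeR adjusted p = 0.027). The single knockouts ranged from -0.76 ± 0.18 in p52 to -0.12 ± 0.15 in p65 and none passed.

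DHCR7 was at 107 and 87.1 CPM with LPS in p50, 149 and 115 in p52, 114, 109 and 141 in p65, 156 and 136 in cREL and 123 and 176 in RELB, against 88.7, 85.1 and 89.1 CPM in CTR. In 10 of 11 knockout clones, all but p50 2, it was above every control, and 1.85% of all genes were so in at least 10. Of all genes, 12.7% were above every control in p52, 6.55% in p65, 11.1% in cREL and 12.4% in RELB. The mean difference was 0.65 ± 0.15 log2 units (SE, edgeR adjusted p = 0.04). The largest single differences were 0.87 ± 0.19 in RELB (edgeR adjusted p = 0.11), 0.85 ± 0.19 in cREL (edgeR adjusted p = 0.091) and 0.70 ± 0.19 in p52 (edgeR adjusted p = 0.17). Untreated, DHCR7 was above every control in 9 of 11 knockout clones, as 3.99% of all genes were in at least 9, at 0.49 ± 0.15 in the mean (edgeR adjusted p = 0.31). LBR untreated was below every control in 8 of 11, as 6.04% of all genes were in at least 8, at -0.49 ± 0.12 (edgeR adjusted p = 0.23). Without CTR 2 the values with LPS were -0.19 for LBR (edgeR adjusted p = 0.8) and 0.43 for DHCR7 (edgeR adjusted p = 0.52), neither of which passed. Without CTR 1 neither passed as well (edgeR adjusted p = 0.073 for LBR and 0.089 for DHCR7), and DHCR7 did not pass without CTR 3 (edgeR adjusted p = 0.094). Leaving out single knockout clones ended the call for LBR in 7 of 11 cases and for DHCR7 in 6 of 11. The count of DHCR7 was not particular to it within the set. TMEM97 with LPS was also above every control in 10 of 11 knockout clones, all but RELB 1.

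**Figure D3:**
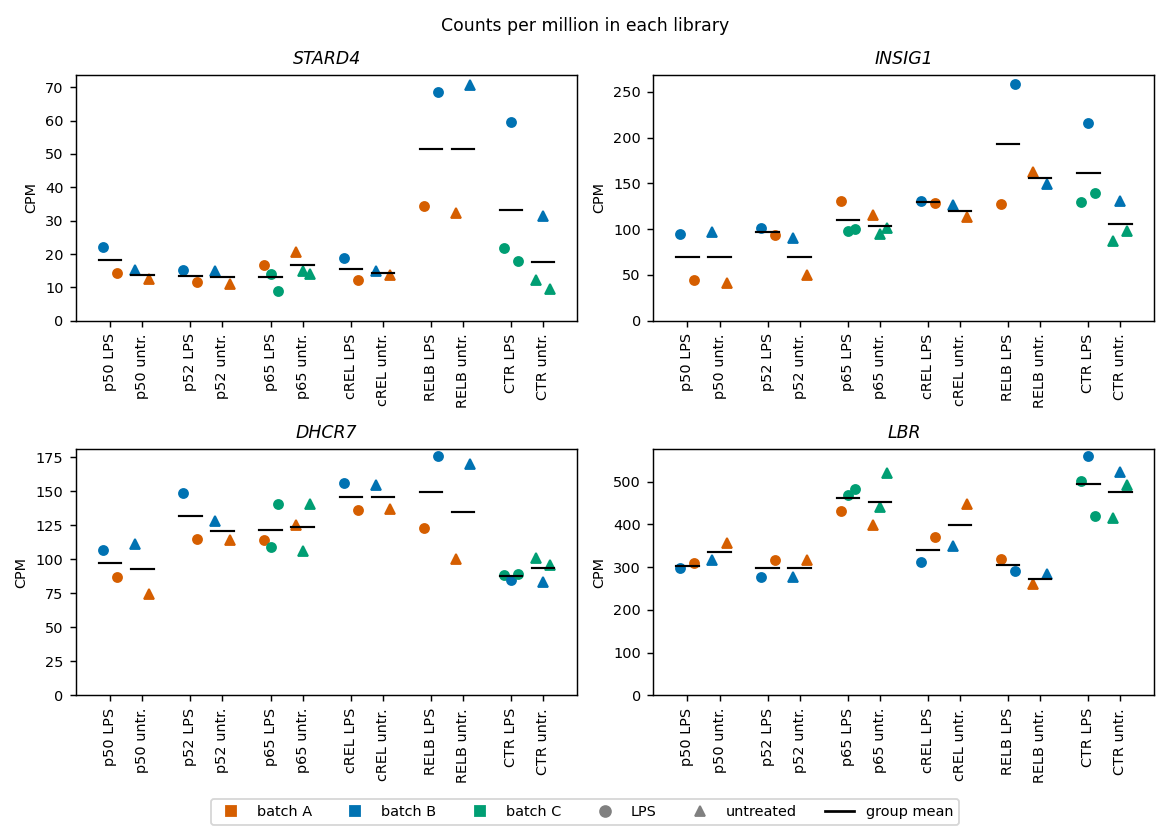
CPM of STARD4, INSIG1, DHCR7 and LBR in each library by knockout and CTR, with LPS left of untreated, circles for LPS, triangles for untreated, colour by batch and a bar at the group mean. CTR 2, the batch B control, is the highest control for STARD4 with LPS at 59.5 CPM, and the 8 p50, p52, cREL and RELB clones with LPS lie at 370 CPM of LBR or below, under all CTR clones.

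RELB 2 had the highest median level of the sterol synthesis genes among the 14 clones, though not every gene was high. Over both its libraries, RELB 2 was the highest of the 14 clones for 17 of the 36 members, and for 12.5% of all genes. Its members' median was 0.48 log2 units above the 14-clone median, against 0.03 for all genes. RELB 1 was the highest for 6 members, and for 9.89% of all genes, and in sterol synthesis genes it lay below CTR 2, with medians of 0.22 and 0.27 log2 units above the 14-clone median. Of the 19 genes of the mevalonate pathway and of squalene to cholesterol, RELB 2 was highest for 9 and RELB 1 for 4. For PMVK RELB 2 was the lowest clone, at -0.72 log2 units from the 14-clone median. It was also below that median for TM7SF2 (-0.49), LBR (-0.35) and EBP (-0.27).

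HMGCS1 was at 96.2 and 112 CPM with LPS in RELB clones, against 27.3, 55.2 and 33.6 CPM in CTR, and at 69.1 and 59.3 CPM untreated, against 21.7, 43.0 and 22.8 CPM in CTR. MSMO1 was at 56.4 and 81.2 CPM with LPS in RELB clones, against 12, 47.4 and 21.7 CPM in CTR. Both genes were above every control in both RELB clones with LPS, as 12.4% of all genes were. HMGCS1 was so untreated too, as 15.6% of all genes were. IDI1, the isopentenyl diphosphate isomerase, was at 238 and 363 CPM in RELB clones, against 115, 243 and 81.1 CPM in CTR, so RELB 1 lay just under CTR 2. FDFT1 was at 278 and 435 CPM in RELB clones, against 216, 246 and 207 CPM in CTR.

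The fitted differences from CTR with LPS were 0.79 ± 0.23 for HMGCS1 (SE, edgeR adjusted p = 0.21), 0.87 ± 0.35 for MSMO1 (edgeR adjusted p = 0.4), 0.70 ± 0.18 for FDFT1 (edgeR adjusted p = 0.16) and 1.2 ± 0.37 for MVK (edgeR adjusted p = 0.23). MVK rests on RELB 2, with 14.6 CPM in RELB 1 and 40.1 CPM in RELB 2, against 13.3, 14.6 and 11.7 CPM in CTR. The mevalonate genes had a median of 0.58 log2 units in RELB with LPS and those from squalene to cholesterol 0.30, against -0.04 for all genes. Without RELB 1, FDFT1 passed at 0.94 (edgeR adjusted p = 0.023), in a fit that called 0.281% of all genes, and without RELB 2 it was at 0.42. HMGCS1 and MVK were at 0.52 and 0.78 without RELB 2, and MSMO1 was at 1.64 without CTR 2, and none of these 3 passed with a clone left out. DESeq2 called HMGCS1 at 0.82, FDFT1 at 0.72 and DHCR7 at 0.90 as higher and LBR at -0.69 as lower with LPS (adjusted p = 0.043, 0.019, 0.004 and 0.032), in a comparison in which it called 1.16% of all genes. In RELB the lowest members were LBR at -0.72 ± 0.18 (edgeR adjusted p = 0.14) and SREBF1 at -0.70 ± 0.45, and untreated they were LBR at -0.84 ± 0.18 (edgeR adjusted p = 0.13) and SREBF1 at -0.89 ± 0.45.

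CTR 2 stood above the other controls in these genes too, with a median of 0.27 log2 units over the 19 synthesis genes, against -0.25 in CTR 1 and -0.19 in CTR 3. RELB 2 and CTR 2 are both of batch B, whose p50 1, p52 1 and cREL 1 had medians of -0.03, -0.00 and 0.06. Mitochondrial shares were 4.56 and 4.2% in the RELB 2 libraries and 4.66 and 5.28% in those of CTR 2, the low end of the range. In the RELB 2 libraries, genes of the shortest class had medians of -0.21 with LPS and -0.43 untreated. The part of these features in the result was not tested.

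**Figure D4:**
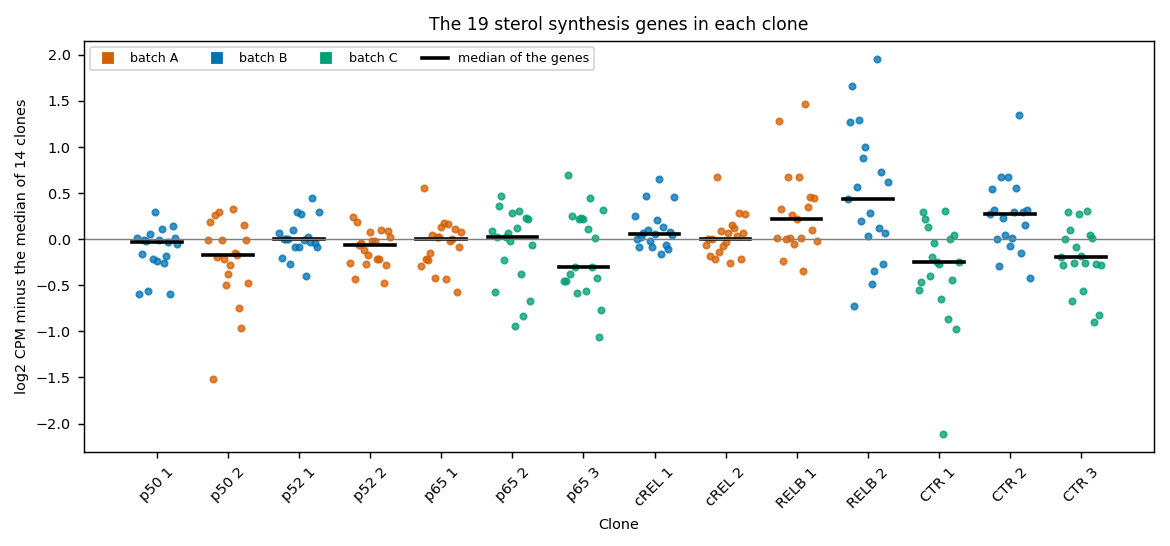
The 19 genes of the mevalonate pathway and of squalene to cholesterol in each clone, as log2 CPM over both libraries minus the median of the 14 clones, with knockouts left of CTR, a bar at the median of the genes and colour by batch. RELB 2 has the highest median at 0.44, RELB 1 is at 0.22, p65 3 has the lowest at -0.30, and CTR 2 is the highest control at 0.27.

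Several SREBP and fatty acid genes differed widely between clones of a single genotype. SREBF2 was at 6.10 CPM with LPS and 5.52 CPM untreated in p50 2, where p50 1 had 99.0 and 93.1 CPM. It was also low in RELB 1, at 15.4 CPM with LPS and 31.2 CPM untreated, and in the untreated library of p52 2, at 15.9 CPM. In the 3 CTR clones it was at 73.0, 116 and 84.6 CPM with LPS and 87.1, 95.5 and 73.9 CPM untreated. FADS2 followed the same libraries, with 9.85 and 8.67 CPM in p50 2, 14 CPM with LPS in RELB 1 and 18.9 CPM in untreated p52 2, against 47.4 to 120 CPM in CTR.

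FASN was at 26.1 CPM with LPS and 18.2 CPM untreated in p50 2, against 53.4 to 78.6 CPM in CTR. In RELB 1 FASN was at 22.7 CPM with LPS and 45.5 CPM untreated, and in untreated p52 2 at 35.5 CPM. SCAP was at 37.8 and 47.2 CPM in p50 2 and at 40.2 CPM with LPS in RELB 1, against 72.2 to 147 CPM in CTR. SREBF1 was at 3.59 and 2.87 CPM in p50 2, but CTR itself ran from 3.07 to 34.1 CPM. In all, p50 2 was the lowest of the 14 clones for 11 of the 36 members, and for 12.4% of all genes. These low libraries belong to batch A, as do p65 1 and cREL 2, where SREBF2 stood between 72.6 and 105 CPM.

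The genes that were low in p50 2 differed in base content. Of the 11 for which it was the lowest clone, 6 fall in the highest of 5 classes of GC content of the longest transcript (FASN, SCAP, FADS2, SREBF2, LSS and DHCR7), ACSS2 in the next, INSIG1 and SQLE in the middle one, and MVK and HSD17B7 were not classed. The highest class had a median of -0.34 log2 units in the untreated p50 2 library and -0.04 in its LPS library, -0.16 and -0.20 in RELB 1 with LPS and untreated, and 0.04 in untreated p52 2. FASN, SCAP, FADS2 and SREBF2 were low in both p50 2 libraries, and the part of GC content in the result was not tested. The fitted difference of SREBF2 from CTR, untreated, was -1.34 ± 0.78 in p50 and -0.97 ± 0.77 in p52 (SE), and it was 0.95 ± 0.62 in p65. The p50 value rests on p50 2 and was -0.41 without it. Untreated p65 clones 1, 2 and 3 had 105, 115 and 106 CPM of SREBF2, against 87.1, 95.5 and 73.9 CPM in CTR. Of these, p65 1 is in batch A, which holds no control. For FADS2 the fitted difference from CTR was 1.03 ± 0.72 with LPS and 0.86 ± 0.73 untreated in cREL, and 0.98 ± 0.59 in p65 with LPS. The mean of the knockouts for SREBF1, untreated, was -0.41 ± 0.32. None of these passed, by edgeR.

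**Figure D5:**
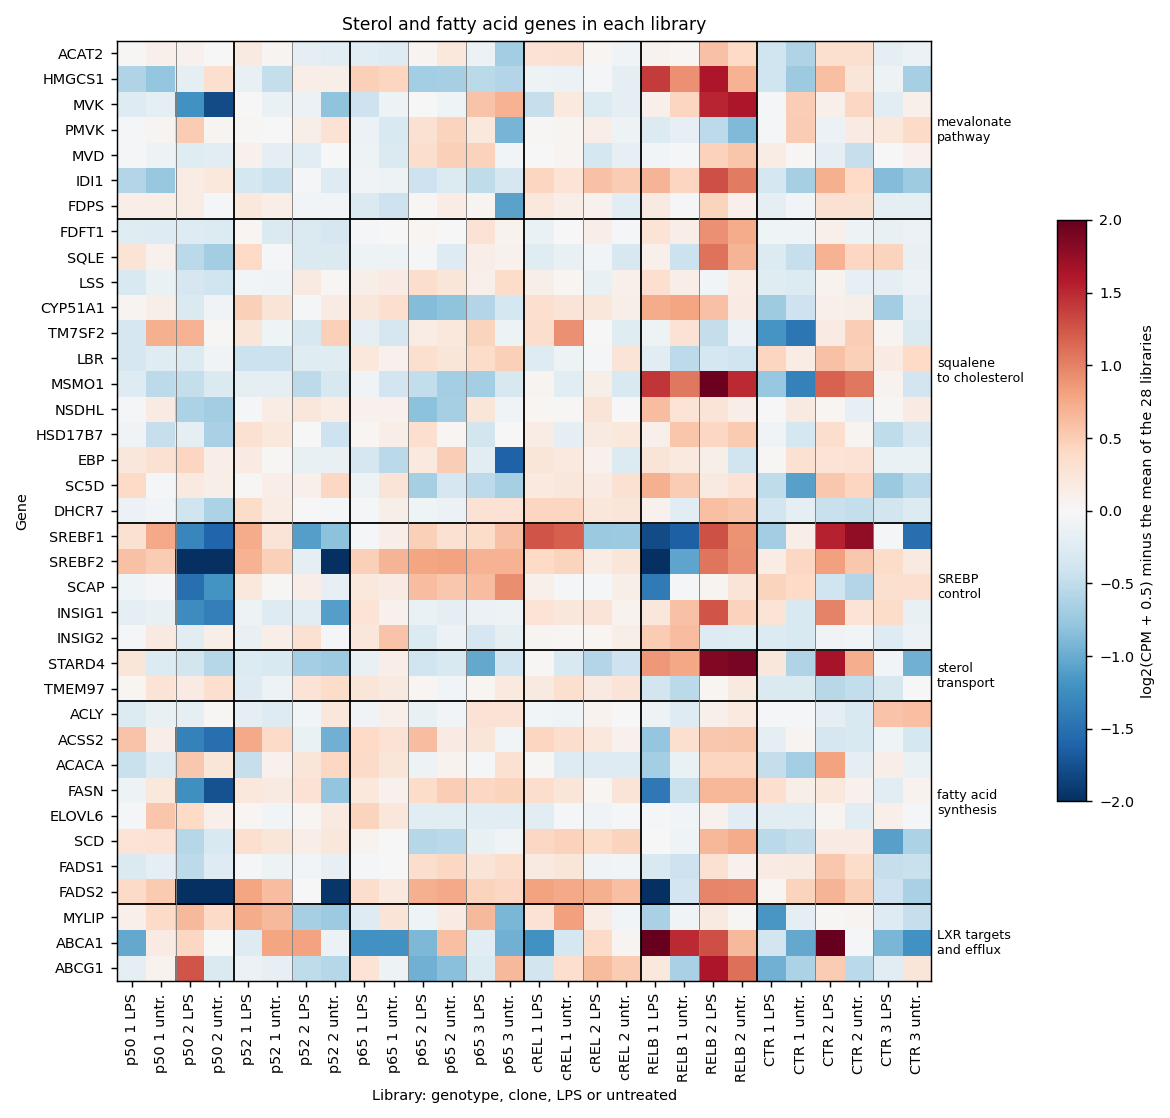
All 37 genes, grouped by role, in all 28 libraries, knockouts left of CTR and LPS left of untreated within a clone, as log2(CPM + 0.5) minus the mean of the 28 libraries, with colours limited at 2 log2 units either way. SREBF2 and FADS2 are dark blue in both p50 2 libraries, in untreated p52 2 and in RELB 1 with LPS. HMGCS1, MSMO1 and STARD4 are red in the RELB libraries, and STARD4 also in CTR 2 with LPS.

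Among the remaining fatty acid genes, SCD stood at 499 to 1173 CPM with LPS in knockout clones, against 349 to 823 CPM in CTR. ACLY, which makes cytosolic acetyl-CoA from citrate, was at 350 to 520 CPM with LPS in knockout clones, against 374 to 629 CPM in CTR. ACSS2, which makes acetyl-CoA from acetate, was at 33.7, 39.4 and 30.1 CPM with LPS in p65 clones, against 22.5, 20.1 and 23.9 CPM in CTR. All p65 clones were above every control, as for 6.55% of all genes, and the difference of 0.89 ± 0.34 did not pass (SE, edgeR adjusted p = 0.27). In p52 the difference was 0.63 ± 0.42 with LPS, with 43.3 and 23.1 CPM. ACSS2 with LPS was above every control too in p50 1, p52 1, cREL 1, cREL 2 and RELB 2, at 38.0, 43.3, 34.4, 29.6 and 37.2 CPM. In p50 2 and RELB 1 it was below every control, at 9.65 and 14.7 CPM. FADS1 ranged from 90.4 to 167 CPM with LPS in knockout clones, against 94.1 to 189 CPM in CTR.

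The LXR targets were low. ABCA1 was at 0 to 4.86 CPM with LPS in knockout clones, against 0.115 to 4.62 CPM in CTR. RELB 1 had the highest ABCA1, at 4.86 CPM with LPS and 2.76 CPM untreated, against 0.393, 4.62 and 0.115 CPM with LPS in CTR. ABCG1 was at 0 to 2.50 CPM with LPS in knockout clones, against 0 to 0.882 CPM in CTR. MYLIP was at 4.28 to 12.3 CPM with LPS in knockout clones, against 2.88, 7.21 and 5.86 CPM in CTR. HSD17B7, a ketosteroid reductase of the pathway, and TM7SF2 stayed at or below 0.667 and 2.54 CPM with LPS in knockout clones, against 0.614 and 1.61 CPM at most in CTR.

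In p65 clones untreated, the lowest members were PMVK at -0.58 ± 0.24 and EBP at -0.44 ± 0.34 log2 units from CTR (edgeR adjusted p = 0.31 and 0.63). PMVK was at 51.2, 86.1 and 33.1 CPM in p65 clones 1, 2 and 3, against 90.6, 71.0 and 83.2 CPM in CTR, and EBP at 141, 289 and 66.3 CPM, against 253, 251 and 186 CPM. In both genes p65 1 and p65 3 lay below every control and p65 2 did not. This was not particular to p65. Untreated PMVK was below every control in 9 of 11 knockout clones, all but p52 2 and p65 2. Of all genes, 6.04% were below every control in at least 8. EBP was below every control in 5 of 11 and above in 2. Without p65 3 the fitted p65 differences of PMVK and EBP were -0.28 and -0.04. Without p65 2 both genes passed, PMVK at -1.04 (edgeR adjusted p = 0.022) and EBP at -1.25 (edgeR adjusted p = 0.019), in a fit that called 2.16% of all genes. Both genes belong to the shortest of 5 classes by transcript length. Untreated, that class had medians of -0.17, 0.07 and -0.62 log2 units in p65 1, 2 and 3. In CTR 1, 2 and 3 they were 0.26, -0.03 and 0.10. The part of transcript length in these values was not tested. In cREL clones untreated, the extremes were DHCR7 at 0.76 ± 0.19 (edgeR adjusted p = 0.55) and MSMO1 at -0.75 ± 0.36, with 17.7 and 16.6 CPM of MSMO1, against 7.74, 43.4 and 15.6 CPM in CTR. In p50 with LPS, MYLIP had the highest difference of the well-detected genes, at 0.86 ± 0.50, and its mean over the knockouts was 0.57 ± 0.37. HMGCS1's LPS response there was -0.65 ± 0.30 from that in CTR, with -0.50 log2 units in p50 2 and 0.17 in p50 1. Other leading differences in LPS response were 0.63 ± 0.33 for PMVK and 0.50 ± 0.58 for MYLIP in p65, 0.41 ± 0.37 for PMVK and 0.36 ± 0.29 for CYP51A1 in cREL, and 0.44 ± 0.29 for CYP51A1 in RELB. In p52 they were 1.13 ± 0.92 for FADS2 and 1.02 ± 0.96 for SREBF2, and 0.22 and 0.15 without p52 2. None of these passed, by edgeR.

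The neighbouring lipid pathways were read from 6 further lists of 71 genes, 70 of them tested, with CH25H at 0 counts in every library. With LPS, 1 of 16 genes of fatty acid activation and lipid storage passed in CTR and in the mean over genotypes, against 0.408% and 0.403% of all genes, and 0 of the genes of the other 5 lists. That gene was ACSL1, which activates long-chain fatty acids. It was at 1206, 439 and 1051 CPM with LPS in CTR clones, against 368, 232 and 347 CPM untreated, a log2 fold change of 1.43 ± 0.23 (SE, edgeR adjusted p = 0.003). The mean over 6 genotypes was 0.50 ± 0.11 (edgeR adjusted p = 0.042).

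In p65 clones with LPS ACSL1 was at 259, 402 and 430 CPM, against 1206, 439 and 1051 CPM in CTR, which is -1.28 ± 0.23 from CTR (edgeR adjusted p = 0.0077), and the mean of the 5 knockouts was -1.0 ± 0.20 (edgeR adjusted p = 0.019). ERLIN1, an endoplasmic reticulum protein that binds the SREBP and SCAP complex, was at 422, 506 and 551 CPM with LPS in p65 clones and 420 and 487 CPM in cREL clones, against 373, 199 and 322 CPM in CTR. Its differences were 0.70 ± 0.16 in p65 (edgeR adjusted p = 0.039), 1.05 ± 0.19 in cREL (edgeR adjusted p = 0.026) and 0.72 ± 0.15 in the mean (edgeR adjusted p = 0.022). The lowest ERLIN1 of the controls, 199 CPM, was that of CTR 2, the only control in batch B. DGAT2, of triglyceride synthesis, was 34.4 ± 12.8 CPM with LPS in p65 clones and 22.4 ± 6.06 CPM in CTR (SD, n = 3 each), a fitted difference of 1.05 ± 0.23 (SE, edgeR adjusted p = 0.029). RXRB, the partner of LXR, was 21.9 ± 4.68 CPM in p65 clones and 13.1 ± 3.65 CPM in CTR (SD, n = 3 each), at 0.88 ± 0.21 (SE, edgeR adjusted p = 0.044). The 3 lists of SREBP processing, LXR receptors, and activation and storage held 1, 1 and 2 genes that passed in p65 with LPS, of 10, 8 and 16, and the other 3 lists held 0, where 0.993% of all genes passed. In cREL with LPS 1 gene of SREBP processing passed, against 0.199% of all genes, in the mean of the knockouts with LPS 1 of that list and 1 of activation and storage passed, against 0.838%, and in the remaining knockout comparisons 0 of the 70. Genes of these further lists are given from the main fit only. How far their calls rest on single clones, CTR 2 among them, was not tested.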

How the data were processed

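Bulk polyA RNA was made into cDNA by an oligo-dT and PCR protocol of the Smart-seq2 type and sequenced as paired ends with Nextera XT libraries, per the labels' protocols. Salmon 0.11.3, FastQC 0.11.7 and GRCh38 are named in the submitters' processing notes, with no annotation release and no strand setting stated there or in the labels. The authors deposited estimated counts per gene, TPM values per gene and an effective length per gene and library. Estimated counts were not all whole numbers, with 41.0 to 47.5% of the nonzero values whole, and were rounded.

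The tests were edgeR 4.0.16 quasi-likelihood fits in R 4.3.3 with TMM scaling and the filterByExpr filter, over 12 groups with batch as an additive term. They gave 24 comparisons, each adjusted by Benjamini-Hochberg over 18624 genes, with an adjusted p under 0.05 as the threshold. The biological coefficient of variation was 31.7%, on 14 residual degrees of freedom. Alternatives were the clone as a block, limma 3.58.1 voom with clone as a random effect, DESeq2 1.42.0, other size factors, no filter, no batch term, an effective length offset, batch C alone and each clone left out. CPM values are TMM-scaled, and per-clone changes are differences of log2 CPM. Python 3.11.15 and matplotlib 3.10.9 made the summaries and figures.

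The 2 libraries of a clone share its replicate number and deviated together from their group means, with correlations of 0.203 to 0.441 and every one of 14 clones best matched to itself. Replicates correlated at 0.947 to 0.969 over 20 pairs, and 0 pairs held identical values. Apart from replicate numbers nothing describes how separate the clones are, so p-values measure only the spread between these samples.

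Named were every member that passed any comparison, the 2 highest and 2 lowest fold changes in each, the highest gene of each role, 10 genes fixed by name, genes of the further lists that passed, and the targeted genes. ABCA1, ABCG1, HSD17B7 and TM7SF2 are given as levels, since their counts are low. The members and lists were chosen with earlier results of these data known. 16 members share exon sequence with another gene and 6 have named pseudogenes, so their counts may hold reads of those genes. Promoters were found for 32 of 37 members.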

Additional observations from a re-analysis of the deposited data

How the results depend on the processing

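Without a filter on low counts, 2 members passed for LPS in p52 (0.194% of all genes passed there), and untreated 2 in p50 (0.45%), 3 in p65 (2.6%) and 1 in RELB (1.41%). With LPS and no filter, 6 passed in p50 (1.05% of all genes), 3 in p52 (0.908%), 4 in p65 (2.6%), 2 in cREL (0.952%), 1 in RELB (1.14%) and 4 in the mean of the knockouts (1.55%), which were DHCR7, INSIG1, LBR and STARD4. By DESeq2, 1 passed for LPS in CTR (0.832%), untreated 1 in p52 (0.333%) and 3 in RELB (1.17%), and with LPS 4 in p50 (1.30%), 3 in p52 (1.40%), 2 in p65 (3.37%), 3 in cREL (1.18%) and 4 in RELB (1.16%). With the clone as a replicate block, 1 passed for LPS in CTR (STARD4, 0.91), 1 in the LPS mean (SQLE, 0.24) and 1 in the LPS response of p65 minus CTR (STARD4, -1.25); other LPS calls of members did not change. Knockout against CTR cannot be fitted within clones. By limma voom with clone as a random effect, 1 passed for LPS in CTR (1.05% of all genes), 1 in the p65 response (0.0644%) and 2 in p50 with LPS (0.145%). Without a batch term or with an effective length offset, 0 passed with LPS in p50, p52, p65 and cREL and 1, LBR, in the mean of the knockouts; within batch C alone 0 passed in p65 with LPS. Leaving out 1 clone at a time gave 0 to 4 members in p65 untreated, where 1 to 400 of all genes passed, the 4 and the 400 both without p65 2. It gave 0 to 2 members in p65 with LPS (74 to 203 of all genes), and 0 to 1 in p50 (1 to 76), p52 (0 to 24), cREL (1 to 32) and RELB (4 to 90) with LPS and in the untreated mean (0 to 113). In the mean with LPS it gave 0 to 3 (20 to 361). Signs turned for INSIG2 with LPS in p50 (0.06 with the length offset) and LBR in p65 with LPS (0.03 in batch C alone). With a clone left out, ranges crossed 0 for ACSS2 in p52 with LPS (-0.13 to 0.74), FADS2 with LPS in RELB (-2.04 to 0.05) and in cREL against CTR (-0.18 to 1.93 with LPS, -0.33 to 1.72 untreated), FDPS with LPS in p65 (-0.02 to 0.62), LBR in p65 with LPS (-0.24 to 0.08), MSMO1 in cREL untreated (-0.95 to 0.14), MYLIP's response in p65 (-0.16 to 0.89) and STARD4 in RELB with LPS (-0.04 to 0.52). The causes were not tested. With a median standard error of 0.22 to 0.28 log2 units in a single genotype, small changes of a member were not detectable.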
